A study of Mus musculus with 2 samples.

Results

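Hormones reach bone through the receptors that marrow stromal cells and bone-forming cells carry, and 7 receptor genes were followed here across the cell classes of mouse bone marrow stroma. They were taken by symbol from the 32286 features of both count matrices, and all 7 were found in each: Pth1r (receptor of parathyroid hormone), Calcr (receptor of calcitonin), Gpr50 (an orphan relative of the melatonin receptors), Insr (insulin receptor), Vdr (vitamin D receptor), Esr1 (estrogen receptor alpha) and Thra (thyroid hormone receptor alpha). The rule used no measured value, and none of the 7 genes served to define a cell class.

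Pth1r and Calcr code for G protein-coupled receptors of peptide hormones that signal largely through cyclic AMP. In bone, parathyroid hormone acts on cells of the osteoblast lineage, and calcitonin acts on osteoclasts, the bone-resorbing cells, in which Calcr is a classical marker. The insulin receptor is a tyrosine kinase that signals through the adaptor proteins Irs1 and Irs2. Vdr, Esr1 and Thra are nuclear receptors, transcription factors switched by their ligands, and Vdr and Thra bind DNA together with retinoid X receptors such as Rxra and Rxrb. CAR cells (CXCL12-abundant reticular cells) are the main stromal cells of marrow; adipogenic CAR cells express Adipoq and Lepr, and osteogenic CAR cells express Alpl, Wif1 and other genes of the bone lineage.

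The study holds 2 single-cell libraries, 1 pulse and 1 chase, made with a 10x Genomics kit that reads the 3 prime end of transcripts. Both come from male mice of the genotype Adipoq-CreER;Ai9, in which tamoxifen lets a Cre driven by the Adipoq gene switch on the red reporter tdTomato. Every animal had tamoxifen by oral gavage from 8 weeks of age on 3 days in a row, and bright tdTomato+ cells were sorted from the digested inner surface of the long leg bones, 24 h afterwards for the pulse and 4 weeks afterwards for the chase. The study used 4 mice, and the labels do not say how many entered each library. Sorted cells were 0.01% of the total in the pulse and 0.29% in the chase, so the libraries show the sorted fraction and not whole marrow. Time since tamoxifen, age and library cannot be told apart in any comparison of chase with pulse, and tamoxifen is itself a ligand of estrogen receptors.

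The pulse library held 10608 barcodes with 89009901 unique molecular identifiers (UMIs, counts of RNA molecules), and the chase library held 10046 barcodes with 82939659. After filters, 9212 and 8335 cells were kept, and 52 barcodes occurred in both libraries. Gates on marker genes gave 3789 pulse and 3757 chase adipogenic CAR cells, 633 and 448 osteogenic CAR cells, 310 and 270 osteoblasts, 135 and 35 osteocytes, 335 and 289 endothelial cells and 41 and 37 osteoclasts. A further 3290 and 2774 kept cells fell in a blood gate, although the sort was for stromal reporter cells. They served as a background level, because free RNA gives stray UMIs in cells that do not express a gene. That level is not pure background: single blood-gated cells held up to 21 and 10 Pth1r UMIs and up to 11 and 8 Vdr UMIs. Whether blood-gated cells express the receptors was not tested. The thresholds of the gates were set after the data were seen. Marker levels followed the gates: the 15 endothelial markers summed to 12352 and 11089 CPM (UMIs per 1000000 UMIs of the class) in endothelial cells and to at most 71.0 CPM in the adipogenic CAR, osteogenic CAR, osteoblast, osteocyte and osteoclast classes. Osteocytes were close to osteoblasts, with the 14 osteoblast markers at 380413 against 389082 CPM in the pulse, while the 12 osteocyte markers stood at 3156 against 449.7 CPM. The boundary between the CAR classes cuts a continuous score: 315 of 4422 pulse CAR cells (7.12%) and 135 of 4205 chase CAR cells (3.21%) lay within 0.3 of it. Most adipogenic CAR cells of the libraries also fell into different clusters, 1 with 2258 pulse and 92 chase cells and another with 100 and 2223.

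With 1 library per group, a difference has no replicate check and no test. Levels are UMIs of a gene summed over a class as a share of all UMIs of that class, in CPM, with an exact 95% Poisson interval, and ratios carry an exact 95% interval conditional on the summed count. These intervals cover counting error only. The words higher and lower are used of ratios of at least 1.5-fold in either direction whose interval excluded 1, where the compared sums held at least 50 UMIs together. Each count by this rule stands beside the share of all genes that met it. Counts under most alternatives stand without that share. A class total of 3 counts sets the highest level that a count of 0 is taken to allow.

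In the GRCm38 build the GENCODE annotation places Pth1r at chr9:110722085-110747145 on the minus strand with 18 merged exons, Vdr at chr15:97854425-97910630 (minus, 14 exons), Esr1 at chr10:4611593-5005614 (plus, 19 exons) and Thra at chr11:98740638-98769006 (plus, 17 exons). Insr lies at chr8:3122061-3279617 (minus, 23 exons), Gpr50 at chrX:71663667-71669257 (plus, 2 exons) and Calcr at chr6:3685680-3764714 (minus, 17 exons). Thra shares 263 exonic bases with Nr1d1, a clock gene on the opposite strand, and no source used here says whether the counting used strand. Nr1d1 itself was at 83.6 and 118 CPM in adipogenic CAR cells and at 28.4 and 35.9 CPM in osteogenic CAR cells, so Thra values are uncertain by an amount that was not measured. Pth1r shares 95 exonic bases with Myl3, which did not pass 2.58 CPM in any class.

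RefSeq promoter windows of the GRCm38.p6 assembly, which run from 250 bases before to 50 bases after a transcription start, were found for 5 of the 7 genes, 9 windows in all. Windows of 3 genes are shown because their mRNA had the 3 ratios farthest from 1 between the gated CAR classes in both libraries: Vdr and Pth1r were higher on the osteogenic side and Gpr50 on the adipogenic side. Capitals mark matches, on either strand, to GGGCGG (the core of a GC box) or TGTGGT (the core of a RUNX site); the third motif searched, AGGTCA (a nuclear receptor half-site), does not occur in these letters. The windows lie at chr15:97908247-97908546 on the minus strand for Vdr, chr9:110742561-110742860 on the minus strand for the third window of Pth1r, chosen of its 3, after the matches were seen, because it holds the most, and chrX:71663417-71663716 on the plus strand for Gpr50.
Vdr: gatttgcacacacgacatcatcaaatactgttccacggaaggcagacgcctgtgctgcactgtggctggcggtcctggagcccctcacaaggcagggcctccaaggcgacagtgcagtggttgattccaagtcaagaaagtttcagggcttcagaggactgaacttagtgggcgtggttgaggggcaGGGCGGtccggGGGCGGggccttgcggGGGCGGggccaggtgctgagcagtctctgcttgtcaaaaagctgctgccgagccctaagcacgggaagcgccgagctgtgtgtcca
Pth1r: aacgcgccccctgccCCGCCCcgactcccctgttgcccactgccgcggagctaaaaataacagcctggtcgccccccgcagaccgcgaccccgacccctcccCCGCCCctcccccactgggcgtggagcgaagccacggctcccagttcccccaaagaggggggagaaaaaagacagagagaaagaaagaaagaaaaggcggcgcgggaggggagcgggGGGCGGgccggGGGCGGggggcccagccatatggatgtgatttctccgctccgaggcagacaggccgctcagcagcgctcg
Gpr50: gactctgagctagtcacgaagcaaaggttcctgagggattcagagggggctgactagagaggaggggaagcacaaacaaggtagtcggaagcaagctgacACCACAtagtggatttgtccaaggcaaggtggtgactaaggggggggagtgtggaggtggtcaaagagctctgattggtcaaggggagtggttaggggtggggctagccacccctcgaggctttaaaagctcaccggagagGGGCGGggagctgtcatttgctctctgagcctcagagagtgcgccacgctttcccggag
The Vdr window holds 3 GGGCGG matches that begin 63, 52 and 36 bases before the start, in a window of 61.3% G and C. The Pth1r window holds 4, at 235, 148, 31 and 20 bases before the start, with 69.3% G and C. Gpr50 has 1 GGGCGG match 9 bases before its start and 1 TGTGGT match, on the opposite strand, 150 bases before it, with 57.3% G and C. Over all 32851 windows, 35.7% hold GGGCGG, 16.8% hold TGTGGT and 16.3% hold AGGTCA, and the median G and C share is 52.7%. Of the other Pth1r windows, the first holds no GGGCGG and the second 1, and of all 9 windows 5 hold it.

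Pth1r was high in every class of the bone lineage. In the pulse it was at 135 CPM in adipogenic CAR cells (131 to 139), 414 CPM in osteogenic CAR cells (397 to 430), 438 CPM in osteoblasts (422 to 454) and 332 CPM in osteocytes (312 to 353). The chase values were 120 CPM, 466 CPM, 423 CPM and 286 CPM in the same order. Endothelial cells had 13.7 and 7.50 CPM, near the 10.4 and 4.45 CPM of the blood gate. Osteoclasts had 24.2 CPM in the pulse, where 24 of the 27 UMIs came from 1 cell, and 1.05 CPM in the chase. The intervals of osteoblasts and osteogenic CAR cells overlapped in the pulse but not in the chase (406 to 441 and 445 to 488 CPM), and below them osteocytes and adipogenic CAR cells followed in that order in both libraries.

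**Figure D1:**
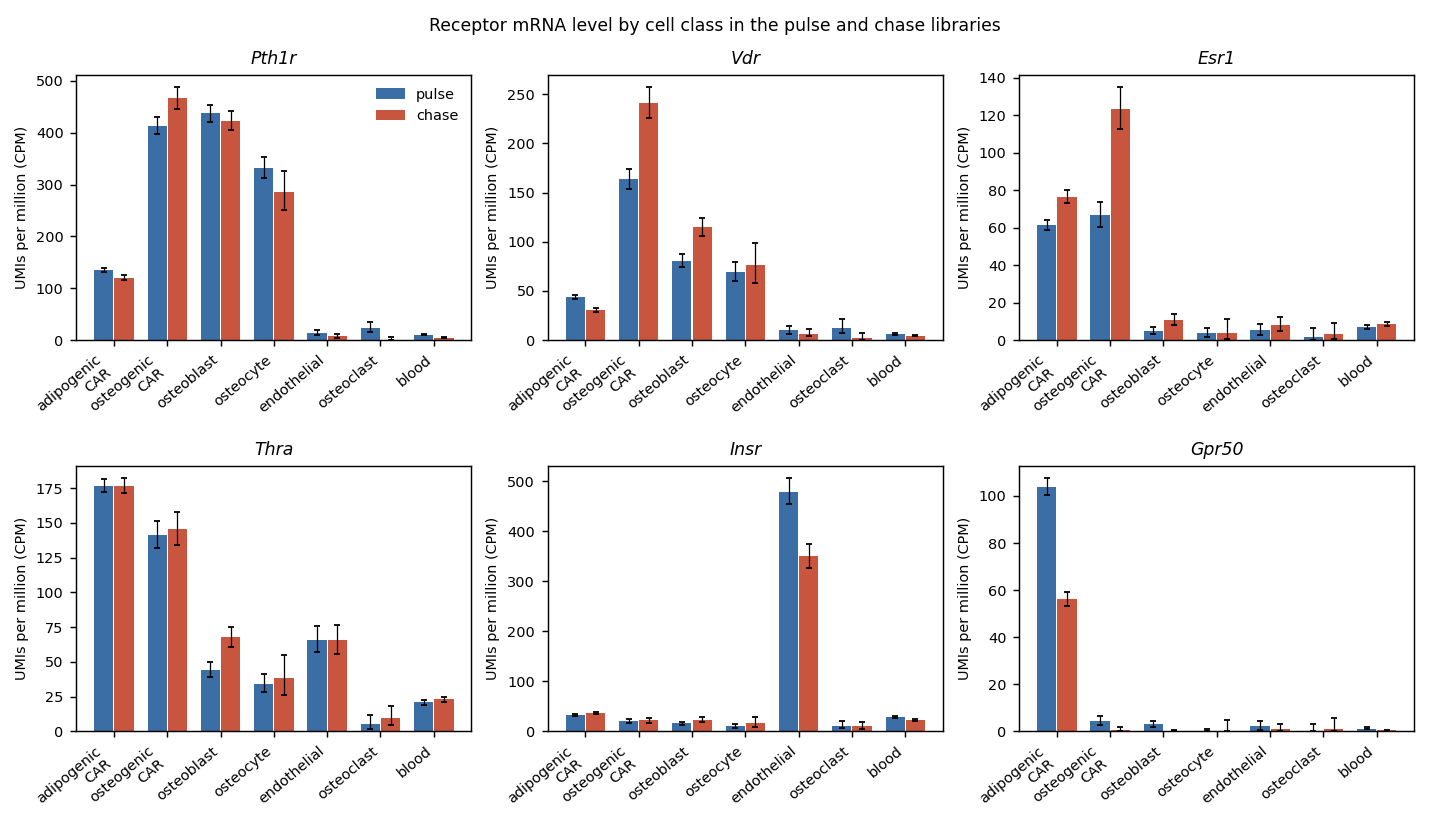
Level of 6 receptor mRNAs in CPM (UMIs per 1000000) by cell class, with 1 bar per library (blue pulse, red chase) and exact 95% Poisson intervals that cover counting error only. Pth1r stands at 286 CPM or more in osteogenic CAR cells, osteoblasts and osteocytes of both libraries, Insr at 480 and 350 CPM in endothelial cells alone, and Gpr50 at 56.2 CPM or more in adipogenic CAR cells alone.

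Vdr, the receptor of the active vitamin D hormone, was highest in osteogenic CAR cells. It was at 43.6 and 30.6 CPM in adipogenic CAR cells of pulse and chase, 163 and 241 CPM in osteogenic CAR cells, 80.8 and 114 CPM in osteoblasts and 69.2 and 76.1 CPM in osteocytes. In CPM, osteogenic CAR cells stood above all 5 other classes beyond the intervals in both libraries. Their difference from osteoblasts did not meet the rule on a scale set to the median gene, as given below. Endothelial cells (9.87 and 6.66 CPM) lay near the blood gate (6.31 and 4.39 CPM), and 15 of their 28 pulse UMIs came from 1 cell. Pulse osteoclasts had 14 UMIs, 13 of them in 1 cell.

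Esr1 was a receptor of CAR cells with little mRNA in mature bone cells. Adipogenic CAR cells had 61.4 CPM in the pulse and 76.3 CPM in the chase, and osteogenic CAR cells 66.6 and 123 CPM. Osteoblasts had 4.93 and 10.6 CPM from 32 and 55 UMIs, and osteocytes 3.54 and 3.87 CPM from 11 and 3 UMIs. The blood gate had 6.97 and 8.75 CPM, and the intervals of Esr1 in osteoblasts, osteocytes and endothelial cells (5.29 and 7.91 CPM) did not lie above those of that gate.

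Thra was found in all stromal classes and in endothelial cells. Its level was 177 CPM in adipogenic CAR cells of both libraries, 141 and 145 CPM in osteogenic CAR cells, 44.4 and 67.9 CPM in osteoblasts and 34.4 and 38.7 CPM in osteocytes. Endothelial cells had 65.9 and 65.8 CPM, above the 21.0 and 23.1 CPM of the blood gate, and osteoclasts had 5.38 and 9.46 CPM.

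Insr marked endothelial cells. They had 480 CPM in the pulse (455 to 506) and 350 CPM in the chase (327 to 374), against 32.9 and 36.3 CPM in adipogenic CAR cells. Osteogenic CAR cells had 21.2 and 22.0 CPM, osteoblasts 16.2 and 23.5 CPM and osteocytes 10.9 and 16.8 CPM. These lay around or under the blood gate, at 28.8 and 22.5 CPM; as blood cells also carry the insulin receptor, that gate is not a pure background for this gene.

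Gpr50 was an adipogenic CAR gene. It was at 104 CPM in the pulse (100.3 to 107) and 56.2 CPM in the chase (53.4 to 59.2) there, and at 4.37 and 0.506 CPM in osteogenic CAR cells, where the sums were 26 and 2 UMIs. Osteoblasts had 19 and 0 UMIs and osteocytes had none, which allows up to 0.965 CPM in the pulse and 3.87 CPM in the chase. The blood gate had 1.21 and 0.416 CPM.

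Calcr was close to absent. All 10608 pulse barcodes held 5 UMIs and all 10046 chase barcodes held 10. Of these, 5 and 9 lay in the 47 osteoclast-gated barcodes of each library, counted before the cell filter; the other 10561 pulse barcodes held none and the other 9999 chase barcodes 1. Among the kept osteoclasts, 2 of 41 pulse cells held 3 UMIs (4.88% of cells, exact Clopper-Pearson interval 0.596% to 16.5%) and 0 of 37 chase cells held any, which allows a level of up to 3.15 CPM. The rest came from osteoclast-gated barcodes over the limit of 10% mitochondrial UMIs, 6 in the pulse with 2 Calcr UMIs and 10 in the chase with 9, whose median mitochondrial share was 16.3% and 17.3%. Osteoclast identity did not rest on Calcr: the 13 osteoclast markers summed to 11416 and 11923 CPM in the gate.

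Depth differs between the classes, so shares of cells were compared after each cell was thinned to 2000 UMIs. A Pth1r UMI was then found in 24.0% and 20.9% of adipogenic CAR cells, 54.7% and 55.7% of osteogenic CAR cells and 60.3% and 58.0% of osteoblasts, against 1.28% and 0.937% in the blood gate. Without thinning the Pth1r shares were 61.8% and 48.9% in adipogenic CAR cells and 98.4% and 96.7% in osteoblasts, whose median cell held 22075 and 18538 UMIs. Detection of Pth1r per cell thus was more frequent at full depth, while the order of the CAR classes was the same with and without thinning. Vdr was found in 7.48% and 4.97% of thinned adipogenic CAR cells and in 19.2% and 33.5% of osteogenic CAR cells. Insr was found in 56.9% and 45.4% of endothelial cells, against 5.34% and 5.13% in the blood gate. Thinning left out 138 pulse and 253 chase adipogenic CAR cells, 55 and 24 osteogenic CAR cells, 5 and 8 osteoblasts and 15 and 20 endothelial cells with fewer UMIs.

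Gpr50 was also the least evenly spread of the 6 genes among adipogenic CAR cells. Its variance over its mean (Fano factor, 1 for even sampling) after thinning was 1.74 in the pulse and 1.37 in the chase, and up to 23 and 14 UMIs lay in a single cell before thinning. The other 5 genes had Fano factors from 0.979 (Thra, chase) to 1.30 (Vdr, pulse) in the same cells. Even sampling at the measured mean would put Gpr50 in 17.8% and 10.1% of cells, against the 13.1% and 8.65% seen.

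Osteogenic over adipogenic CAR cells separated the receptors into groups. In the pulse 4 of the 6 measured genes met the rule, and 22.6% of 12205 genes did; in the chase it was 5 of 6, against 24.9% of 11917 genes. Pth1r was 3.06-fold higher in osteogenic CAR cells in the pulse (2.91 to 3.21) and 3.87-fold in the chase (3.65 to 4.11). Vdr was 3.75-fold higher (3.45 to 4.07) and 7.90-fold higher (7.18 to 8.69). With clusters in place of gates, which gave 1460 pulse and 684 chase osteogenic CAR cells, the ratios were 2.40 and 3.67 for Pth1r and 2.23 and 5.74 for Vdr. Of those cluster cells, 820 in the pulse and 244 in the chase lay in the adipogenic CAR gate. Pth1r and Vdr were thus higher in the osteogenic class in each library by either way of classing.

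Esr1 had a ratio of 1.08 in the pulse (0.970 to 1.21) and was 1.62-fold higher in osteogenic CAR cells in the chase (1.46 to 1.79). Gpr50 was 23.7-fold lower in osteogenic CAR cells in the pulse (16.2 to 36.4); in the chase the ratio was 0.00900 (0.00109 to 0.0326), from 2 UMIs. The size of the Gpr50 difference moved with the boundary of the classes: with clusters it was 2.75-fold and 7.26-fold lower, with the score boundary at -0.5 it was 5.69-fold and 11.9-fold, and without cells near the boundary 45.8-fold and 200.1-fold. Insr was lower by the rule, at ratios of 0.645 and 0.605; in the pulse the call was lost with clusters in place of gates (0.764) and with every barcode kept (0.670). Thra had ratios of 0.799 and 0.823 and did not meet the rule. Ribosomal protein genes took 92249 and 73962 CPM in adipogenic and 145512 and 116589 CPM in osteogenic CAR cells, and their part in these ratios was not tested.

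**Figure D2:**
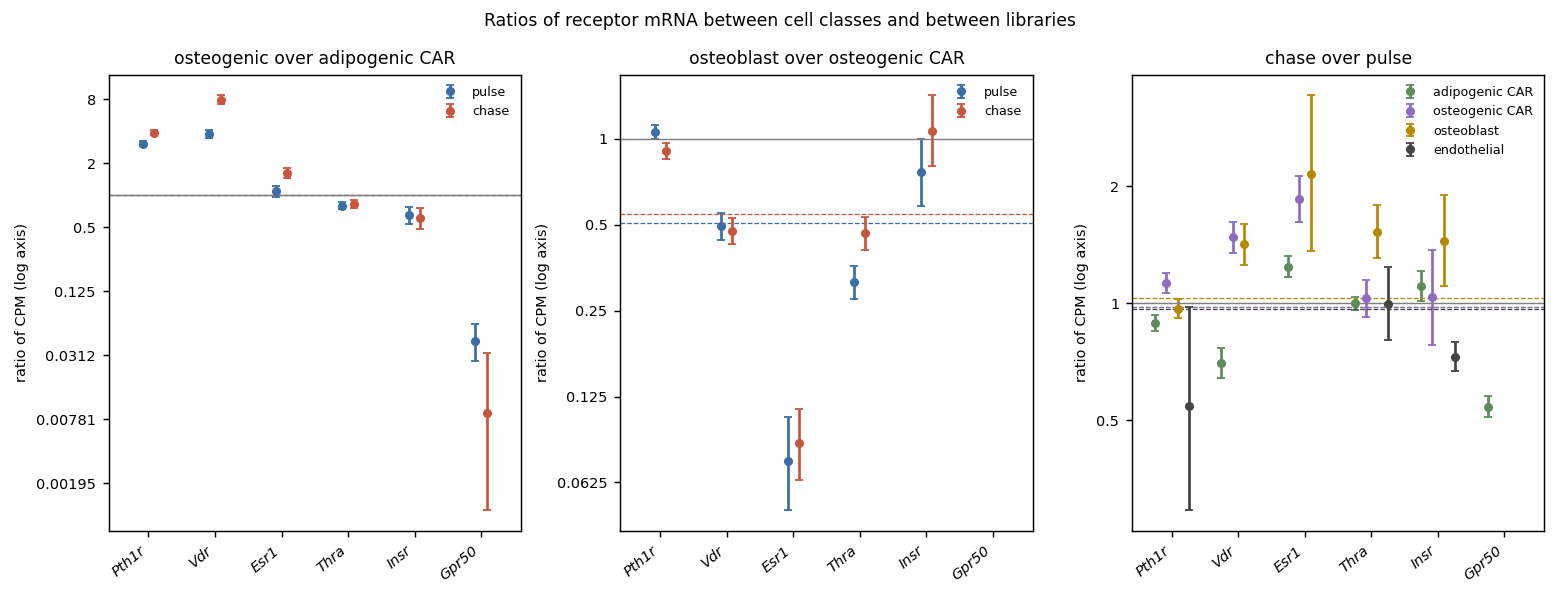
Ratios of CPM on log axes for 6 receptor genes, with exact 95% intervals for counting error, for osteogenic over adipogenic CAR cells, osteoblasts over osteogenic CAR cells and chase over pulse in 4 classes; dashed lines give the median ratio of all genes and genes without 50 UMIs are left out. Vdr and Pth1r sit above 1 and Gpr50 far under it on the left, and the dashed lines of the middle panel stand at 0.508 and 0.546.

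Levels were also read along the CAR marker score. As the class boundary is a cut of this score in the same cells, these views are not independent. CAR cells of each library were put in 7 bins by the mean log level of osteogenic markers minus that of adipogenic markers, with 1010 to 203 pulse cells and 1870 to 221 chase cells from the first to the last bin. Pth1r went from 110 to 491 CPM in the pulse and from 106 to 530 CPM in the chase, with a higher value in each next bin. Vdr went from 25.3 to 251 CPM and from 25.5 to 319 CPM, and most of its increase lay in the last 3 bins (86.2, 132 and 251 CPM in the pulse). Gpr50 was highest in the second bin, at 123 and 60.7 CPM, and had 0 UMIs in the last bin of both libraries. Thra stayed between 153 and 191 CPM in the first 6 bins and was at 107 and 115 CPM in the last. Esr1 lay between 51.7 and 70.4 CPM in the pulse, while in the chase it went from 67.9 CPM in the first bin to 136 CPM in the sixth. Insr was at 33.9 and 35.6 CPM in the first bin and 18.9 and 19.3 CPM in the last.

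**Figure D3:**
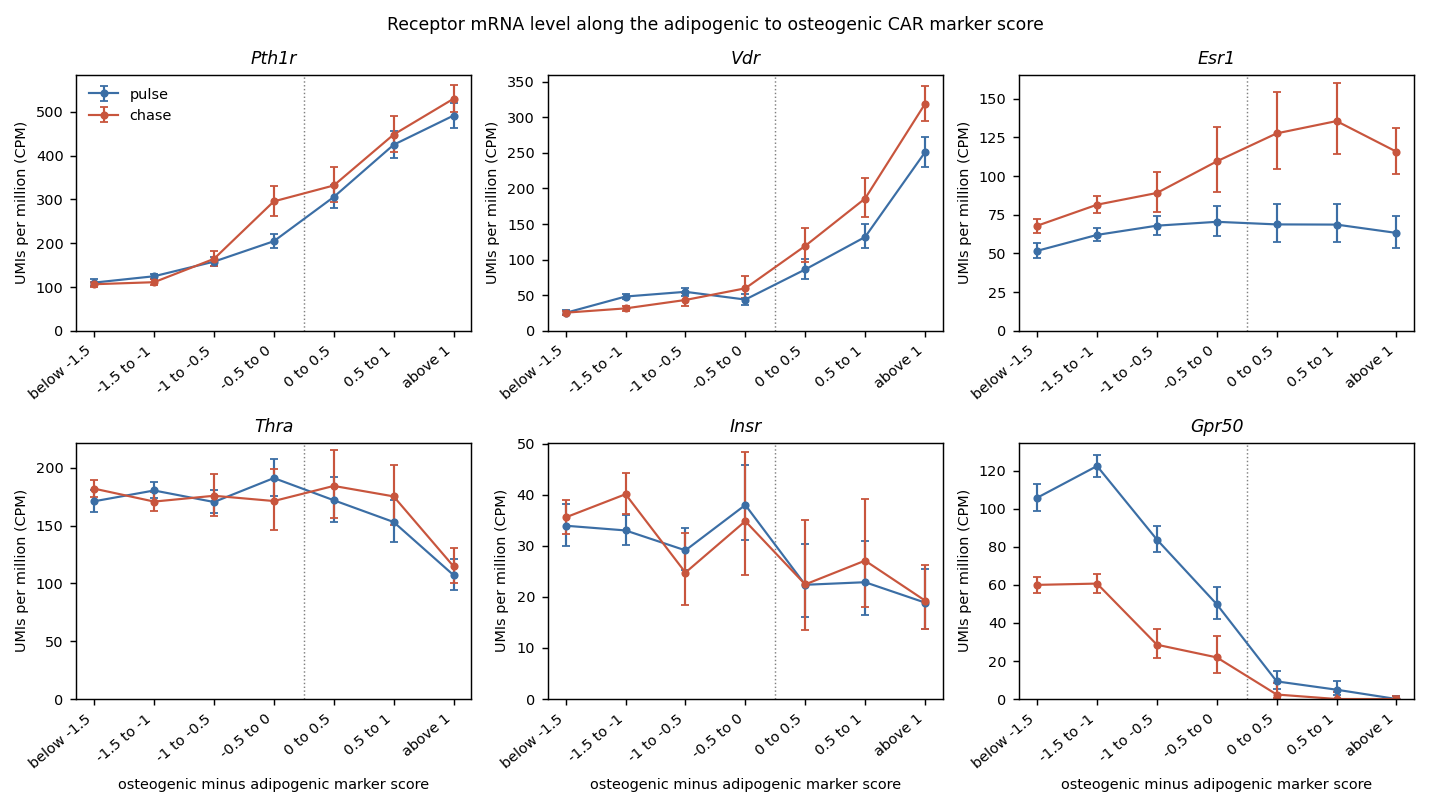
Level in CPM (vertical axis) of 6 receptors in CAR cells binned by osteogenic minus adipogenic marker score (horizontal axis), with lines for the libraries (blue pulse, red chase), exact 95% Poisson intervals and a dotted line at the class boundary. Vdr reaches 251 and 319 CPM in the last bin, in which Gpr50 has no UMI.

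Osteoblasts over osteogenic CAR cells needs a second scale. The 14 osteoblast markers took 389082 CPM in pulse osteoblasts and 19957 CPM in osteogenic CAR cells, and their part in a general shift to lower values was not tested: 76.7% of 10152 genes met the rule in the pulse and 71.2% of 9451 in the chase, and the median log2 ratio of all genes was -0.98 and -0.87. On this scale 3 of 5 measured receptors were lower in both libraries: Vdr 2.02-fold and 2.11-fold, Esr1 13.5-fold and 11.7-fold, and Thra 3.18-fold and 2.14-fold. With clusters Vdr lost its call in the pulse (0.716). Scaled to the median gene, which brings the shares of higher and lower genes to 20.1% and 22.2% in the pulse and to 19.3% and 20.2% in the chase, Esr1 remained lower (ratios 0.146 and 0.157) and Vdr did not differ by the rule (0.974 and 0.868). Pth1r, with ratios of 1.06 and 0.908 on the first scale, was 2.08-fold and 1.66-fold higher in osteoblasts on the second. Insr, at 0.764 and 1.07, had 1.504 and 1.95 on the second scale, while with clusters and the first scale its pulse ratio was 0.583, a call in the other direction. Thra was lower in the pulse (0.619) but not by the rule in the chase (0.855). Esr1 was the single receptor of the 5 whose call held on both scales in both libraries.

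Osteocytes over osteoblasts showed few differences. None of 4 measured receptors met the rule in the pulse, where 13.7% of 8174 genes did, and 2 of 5 did in the chase, against 12.3% of 7003 genes. The chase calls were Vdr at a ratio of 0.665 (interval up to 0.870) and Thra at 0.570 (0.379 to 0.828), from 59 and 30 UMIs in 35 osteocytes. The Vdr ratio lay at the edge of the 1.5-fold rule, and stricter gates gave 6 chase osteocytes. Neither call was checked under alternatives. Pth1r had ratios of 0.758 and 0.677.

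Endothelial cells over adipogenic CAR cells differed in all 6 measured receptors in each library, where 48.3% of 12250 genes and 46.5% of 12045 genes met the rule. Insr was 14.6-fold higher in the pulse (13.5 to 15.8) and 9.63-fold higher in the chase (8.76 to 10.6). The other 5 were lower: Pth1r 9.84-fold and 16.0-fold, Vdr 4.41-fold and 4.58-fold, Esr1 11.6-fold and 9.64-fold, Thra 2.68-fold and 2.69-fold, and Gpr50 49.1-fold in the pulse. In the chase the Gpr50 ratio was 0.0148 (0.00179 to 0.0536), from 2 UMIs.

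Most gated endothelial cells had markers of the sinusoids, the wide thin-walled vessels of marrow. These markers, Stab2 and Flt4, were also among the 15 markers of the endothelial gate, which favours cells that carry them. Insr was at 488 and 370 CPM in the 298 pulse and 218 chase cells with at least 3 UMIs of Stab2 and Flt4 together. In the 7 and 18 endothelial cells with none, it was at 293 CPM (134 to 556) and 95.6 CPM (41.3 to 188), from 9 and 8 UMIs, and their median depth was 3296 and 3940 UMIs against 7507 and 8023. The intervals overlapped in the pulse and not in the chase.

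Chase over pulse was compared in 4 classes. In adipogenic CAR cells 1 of 6 met the rule, against 13.9% of 12821 genes: Gpr50 was 1.85-fold lower in the chase (1.74 to 1.97). In osteogenic CAR cells 1 of 5 did, against 11.8% of 10217 genes: Esr1 was 1.85-fold higher (1.62 to 2.12). In osteoblasts 2 of 5 did, against 9.09% of 8757 genes: Esr1 was 2.15-fold higher (1.36 to 3.43), from 32 and 55 UMIs, and Thra 1.53-fold higher (1.31 to 1.79). The Thra call was lost with clusters (1.49), every barcode (1.47), the mean of the cells' own CPM (1.42) and median-of-ratios scaling (1.48), and the Esr1 call with the mean of the cells' own CPM (1.44). In endothelial cells 1 of 3 did, against 6.63% of 8694 genes: Pth1r was 1.83-fold lower (1.02 to 3.40), from 39 and 18 UMIs near the level of the blood gate. That call was lost with median-of-ratios scaling (0.563) and the direction turned with clusters (1.11).

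Esr1 was thus higher in the chase in both osteogenic CAR cells and osteoblasts, where its level lay near the blood gate; in adipogenic CAR cells its ratio was 1.24 (1.17 to 1.32). Vdr had a ratio of 0.702 in adipogenic CAR cells (0.642 to 0.766), 1.48 in osteogenic CAR cells (1.35 to 1.62) and 1.42 in osteoblasts (1.26 to 1.60), each short of 1.5-fold. With clusters the Vdr ratio was 1.74 in osteogenic CAR cells and 1.58 in osteoblasts and met the rule in both, as it did in osteogenic CAR cells with median-of-ratios scaling (1.51) and in osteoblasts with stricter gates (1.54). The osteogenic CAR clusters held 820 gated adipogenic CAR cells of 1460 in the pulse and 244 of 684 in the chase. Osteoblast clusters held 133 gated osteocytes of 446 in the pulse and 33 of 312 in the chase. The part of this mixing in the cluster ratios was not tested. CAR cells were also spread differently along the marker score, with 1010 pulse and 1870 chase cells in the lowest bin. The part of this spread in the chase over pulse ratios was not tested. Pth1r had ratios of 0.890, 1.13 and 0.967 in the same classes, and Insr in endothelial cells 0.729 (0.669 to 0.795). Mitochondrial genes stood at 46037 CPM in pulse and 53803 CPM in chase osteogenic CAR cells, and erythroid markers, a summed list, at 122 and 1429 CPM; the part of either in these ratios was not tested.

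Wider lists of hormone receptors place the 7 in context. These lists include the 7 themselves: Vdr, Esr1 and Thra among the nuclear receptors, and Pth1r, Calcr, Gpr50 and Insr among the peptide hormone receptors. The lists of partners and related genes were chosen for this tissue with earlier results known, and genes named from them had at least 20 CPM in a class. Among 27 nuclear receptors, 14 reached that level. Of those measured in osteogenic over adipogenic CAR cells, 1 of 18 was higher and 3 were lower in the pulse, and 2 of 17 were higher and 3 lower in the chase, with median log2 ratios of -0.26 and -0.21 against 0.01 and 0.02 for all genes, of which 11.1% and 11.5% were higher and 11.5% and 13.4% lower.

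All nuclear receptors called higher in osteogenic CAR cells were among the members: Vdr in both libraries and Esr1 in the chase. Nr1h3, a receptor of oxidised cholesterol, was called lower in both, at ratios of 0.567 and 0.416. Nr3c1, the glucocorticoid receptor, was at 105 and 136 CPM in adipogenic CAR cells, 38.1 and 59.1 CPM in osteoblasts and 146 and 163 CPM in endothelial cells. Rxra was at 36.6 and 39.9 CPM in adipogenic CAR cells, 28.6 and 36.2 CPM in osteogenic CAR cells and 57.5 CPM in endothelial cells of both libraries, and Rxrb at 25.7 and 30.1, 29.8 and 28.6, and 35.6 and 42.9 CPM in the same classes. Both partners were detected in every class that held Vdr.

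The alternative receptors for the same hormones were scarce. Esr2, estrogen receptor beta, had 6 and 9 UMIs in all adipogenic CAR cells, and Gper1, a membrane estrogen receptor, was at 3.45 and 1.60 CPM there and at 3.87 and 5.31 CPM in osteogenic CAR cells. Thrb, the other thyroid hormone receptor, was at 7.61 and 10.6 CPM in adipogenic CAR cells. All 3 stayed under 20 CPM in each of the 6 classes.

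Genes that handle these ligands or respond to them did not move as 1 group. Of the vitamin D list, 8 of 15 genes were measured in osteogenic over adipogenic CAR cells, with 2 higher and 1 lower in the pulse and 3 higher and 0 lower in the chase (median log2 ratios 0.09 and 0.30). Spp1, osteopontin, which also helped to define the class, was 11.6-fold and 21.6-fold higher there, and Enpp1, which makes pyrophosphate, 1.57-fold and 1.64-fold. Cyp24a1, named after its values were seen, is the enzyme that degrades active vitamin D and a classical Vdr target; it had 0 UMIs in every class, which allows up to 0.505 CPM in pulse and 0.759 CPM in chase osteogenic CAR cells. Of the thyroid hormone list, 1 of 6 measured genes was higher and 3 lower in the pulse, and 0 of 5 higher and 3 lower in the chase. Klf9, a thyroid hormone and glucocorticoid target, was at 519 and 653 CPM in adipogenic and 291 and 429 CPM in osteogenic CAR cells. Of the estrogen list, 1 of 6 was higher and 0 lower in the pulse, and 0 of 6 in either direction in the chase. Among all genes in osteogenic over adipogenic CAR cells, 11.1% were higher and 11.5% lower in the pulse, and 11.5% and 13.4% in the chase.

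Peptide hormone receptors, a list that includes Pth1r, Calcr, Gpr50 and Insr, leaned to the adipogenic side. Of 51 listed genes, 19 were measured in osteogenic over adipogenic CAR cells. In the pulse 2 were higher, 13 lower and 4 neither, and in the chase 2 were higher, 12 lower and 5 neither. Pth1r and Ramp1 were the higher genes, and Gpr50 and Insr were among the lower. The median log2 ratio was -1.61 and -1.75, and the shares of all genes called lower were 11.5% and 13.4%. Npr3, a clearance receptor of natriuretic peptides, was at 38.2 and 15.4 CPM in adipogenic and 1.51 and 0.759 CPM in osteogenic CAR cells, and Mc5r, a melanocortin receptor, at 34.8 and 35.1 CPM and 5.05 and 2.78 CPM. Adcyap1r1, the receptor of the peptide PACAP, was at 17.7 and 23.6 CPM and 1.01 and 1.77 CPM. In chase over pulse of adipogenic CAR cells, 8 of 20 measured genes of this list, Gpr50 among them, were lower and 1 was higher. Among all genes 6.65% were lower and 7.20% higher. Ghr, the growth hormone receptor, went from 716 to 303 CPM.

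**Figure D4:**
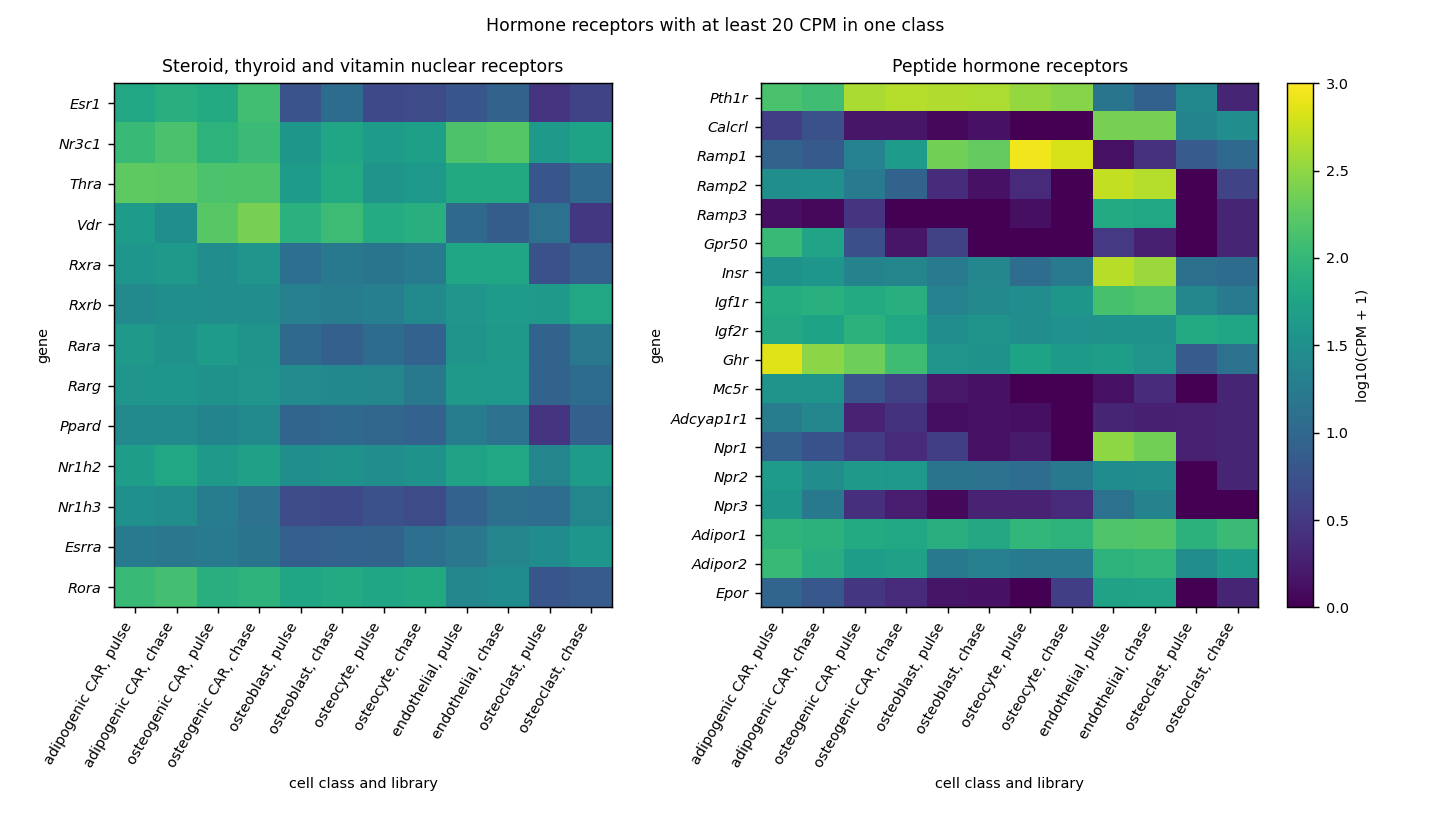
Levels of 13 of the 14 nuclear receptors (left) and 18 peptide hormone receptors (right) with at least 20 CPM in a class, as log10(CPM + 1) colour, with genes as rows and class and library as columns. Levels are to be read along a row, where Insr and Calcrl are brightest in endothelial cells and Gpr50 and Mc5r in adipogenic CAR cells.

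Downstream of Pth1r, 27 of 30 genes of the parathyroid hormone and cyclic AMP list were measured in the pulse, with 1 higher and 4 lower in osteogenic CAR cells, and 26 in the chase, with 1 higher and 6 lower (median log2 ratio -0.12 in each). Over all genes, 11.1% were higher and 11.5% lower in the pulse, and 11.5% and 13.4% in the chase. The stimulatory G protein gene Gnas was at 828 and 777 CPM in adipogenic CAR cells, 877 and 894 CPM in osteogenic CAR cells and 1110 and 1146 CPM in osteoblasts. Pde7b, a phosphodiesterase that degrades cyclic AMP, was 2.81-fold and 3.55-fold higher in osteogenic CAR cells. Tnfsf11, which codes for the osteoclast factor RANKL and is a known target of parathyroid hormone and vitamin D, was at 320 and 77.7 CPM in adipogenic CAR cells, 98.2 and 104 CPM in osteogenic CAR cells and 6.94 and 0.962 CPM in osteoblasts. Pth1r and Tnfsf11 were thus ordered differently over the classes. Pthlh, a local ligand of Pth1r, had 25 UMIs in pulse osteogenic CAR cells (4.20 CPM) and 1 in the chase.

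The insulin adaptor genes had another order of classes than Insr. The adaptors were at higher levels in CAR cells than in endothelial cells: Irs1 at 127 and 77.2 CPM in adipogenic CAR cells against 6.34 and 3.33 CPM, and Irs2 at 129 and 146 CPM against 5.99 and 3.75 CPM. Irs2 was also at 26.1 and 38.7 CPM in osteogenic CAR cells. The related receptor Igf1r was at 71.6 and 80.01 CPM in adipogenic CAR cells, 20.3 and 24.6 CPM in osteoblasts and 135 and 150 CPM in endothelial cells. In endothelial over adipogenic CAR cells 5 of 21 measured genes of the insulin list were higher and 8 lower in the pulse, and 6 of 20 higher and 10 lower in the chase, with median log2 ratios of -0.45 and -0.50 against 0.03 and 0.08 for all genes. Among all genes, 23.7% were higher and 24.5% lower in the pulse, and 23.9% and 22.6% in the chase.

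The calcitonin family was present through the relatives of Calcr. Calcrl, the receptor of adrenomedullin and calcitonin gene-related peptide, was at 244 and 239 CPM in endothelial cells and at 2.63 and 4.58 CPM in adipogenic CAR cells. Its partner proteins divided by class: Ramp2 was at 530 and 464 CPM and Ramp3 at 67.0 and 62.5 CPM in endothelial cells, while Ramp1 was at 854 and 652 CPM in osteocytes and 227 and 191 CPM in osteoblasts. Osteocytes held 3.76-fold and 3.41-fold more Ramp1 than osteoblasts, and neither class held more than 2 UMIs of Calcrl in a library.

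The genes whose levels most resembled each receptor were found by Pearson's r of log2 level over the 12 sums of 6 classes in 2 libraries, among 8964 genes; this is a description of sums that share libraries. For Pth1r they were Bmp1 (0.993), Fap (0.990) and Pcolce (0.988), which code for enzymes and an enzyme enhancer of the matrix. For Vdr they were Slit2 (0.987), Clec11a (0.987) and Ccdc80 (0.977). For Esr1 they were Cpxm1 (0.986), Fam174b (0.984) and Islr (0.982), and for Thra Dsel (0.987), Calu (0.984) and Tmem176b (0.982). Insr was closest to the endothelial genes Pxdn (0.988), Ripply3 (0.988) and Adcy4 (0.987). Gpr50 was closest to Timp4 (0.978), Mc5r (0.971) and Pla1a (0.970), and Mc5r is itself a receptor of the peptide list.

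Detection of 2 genes in the same cell was set against the product of their separate shares. Among osteogenic CAR cells thinned to 2000 UMIs, Pth1r and Vdr occurred together in 10.7% of pulse cells (8.32% to 13.5%) and 20.5% of chase cells (16.8% to 24.7%), where the product of their shares was 10.5% and 18.6%. In adipogenic CAR cells Gpr50 and Alpl, the alkaline phosphatase gene of the osteogenic gate, occurred together in 1.12% and 0.885% of cells, 0.676 and 0.682 times the product. Pth1r and Alpl occurred together there in 3.59% and 4.05% of cells, 1.18 and 1.29 times the product. The pulse interval (3.01% to 4.24%) held the product of 3.03%, and the chase interval (3.42% to 4.76%) lay above the product of 3.14%. Alpl is itself 1 of the markers of the score along which Pth1r went up and Gpr50 down. Pth1r and Vdr occurred together in 1.73% and 0.656% of adipogenic CAR cells, against products of 1.79% and 1.04%.

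Cells rich in 1 receptor were then set against cells of the same class without a UMI of it; the genes named from this step were chosen after their values were seen and are descriptions. The 10% of osteogenic CAR cells with the highest Vdr fraction (64 pulse and 45 chase cells, median depth 8864 and 9138 UMIs) were compared with the 321 and 172 cells with none (6165 and 6034 UMIs). Dmp1, a matrix gene of late osteoblasts and osteocytes that also served as a gate marker, was at 504 against 4.08 CPM in the pulse and 516 against 6.43 CPM in the chase. Fam20c, the kinase of secreted matrix proteins such as Dmp1, was 8.58-fold and 6.72-fold higher, and Timp1, a protease inhibitor, 8.75-fold and 6.57-fold. The gate markers Spp1 and Col1a1 were higher too, Spp1 5.53-fold and 6.50-fold and Col1a1 5.18-fold and 4.22-fold. On the other side, Gdf10, a growth factor of the BMP family, was at 11.6 against 143 CPM and 23.8 against 175 CPM, and Hey1, a Notch target, at 13.3 against 56.6 CPM and 6.50 against 62.5 CPM. In all, 251 of 6943 measured genes were higher and 758 lower in the Vdr-rich cells of the pulse, and 293 of 4664 higher and 661 lower in those of the chase. The part of the difference in depth was not tested.

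The 10% of cells richest in Pth1r among adipogenic CAR cells leaned to the osteogenic side. Alpl was at 161 against 68.4 CPM in the pulse and 281 against 72.4 CPM in the chase, and Wif1, a Wnt inhibitor and another marker of the osteogenic gate, 2.54-fold and 2.51-fold higher. Of genes that are no gate markers, Angpt4 was 1.86-fold and 2.19-fold higher and Gdf10 1.83-fold and 2.27-fold. The interferon-induced chemokine Cxcl10 was 3.84-fold and 6.09-fold lower.

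Gpr50-rich adipogenic CAR cells had more Rspo2, a Wnt enhancer (185 against 99.2 CPM and 149 against 77.8 CPM), and more Bmp4 (667 against 369 CPM and 647 against 354 CPM). They had less Alpl, at 52.7 against 104 CPM and 69.3 against 119 CPM, and less Fabp4, a fatty acid carrier, at 44.7 against 188 CPM and 33.5 against 227 CPM. Fabp4 was also lower in Vdr-rich and Esr1-rich adipogenic CAR cells, 9.33-fold and 7.41-fold for Vdr and 3.91-fold and 2.83-fold for Esr1. Fabp4 was thus lower in the cells rich in each of these 3 receptors, in both libraries.

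Esr1-rich osteogenic CAR cells had less of the cell cycle genes Mki67, at 14.9 against 66.8 CPM and 13.3 against 66.5 CPM, and Top2a, at 46.8 against 93.0 CPM and 23.2 against 83.3 CPM. Angpt4 was higher in them, 1.65-fold and 1.94-fold. Among endothelial cells, the Insr-rich 10% (34 pulse and 29 chase cells) had more Ackr1, a chemokine-binding receptor of venular endothelium, at 476 against 203 CPM and 389.5 against 112 CPM, and more of the protease gene Adamts5, at 2544 against 1211 CPM and 2115 against 736 CPM. Rgs5, a pericyte marker, was at 5.56 against 662 CPM in the chase and had no UMI in the rich cells of the pulse against 588 CPM (ratio at most 0.0254), and the calcification inhibitor Mgp was 6.59-fold and 13.1-fold lower. The 9 pericyte and smooth muscle markers summed to 272 and 538 CPM over all endothelial cells, and the cells without Insr were shallower, with a median of 4595 and 4660 UMIs against 6740 and 5695. The part of either in these differences was not tested.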

How the data were processed

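Male Adipoq-CreER;Ai9 cells gave 1 pulse and 1 chase library (10x Genomics, 3 prime). The authors deposited raw UMI counts per gene and barcode. The submitters' processing notes name Cell Ranger 2.1.1 and mm10, while the file headers name version 6.0.2; strand use and intron counting are not given in the sources used here. Kept barcodes had 500 or more genes, 1000 or more UMIs and a mitochondrial share below 10%, and Scrublet (scanpy 1.11.5) removed 178 pulse and 110 chase doublets. Cells were gated on marker UMIs per 10000 and split into CAR classes at a marker score of 0. UMIs were summed per class as CPM; intervals are exact Poisson, conditional binomial or Clopper-Pearson, at 95%. The comparison was run on simulated Poisson counts. These hold no variation between libraries, animals or cells, so they cannot test calls made on 1 library per group. The alternatives are given at the close. All 7 members are described; partner genes were named where they had at least 20 CPM in a class, up to 4 per list by the absolute log2 ratio, plus fixed direct partners. The members and the lists were chosen with earlier results of these data known. Scripts used python 3.11.15, scipy 1.17.1 and leidenalg 0.10.2. Some genes of the lists are counted but not reported here by name.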

Additional observations from a re-analysis of the deposited data

Results flagged for a closer look

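For 3 receptors the chase over pulse ratio lay above 1 in 1 class and under 1 in another, with both intervals clear of 1. With 1 library in each group these differences were not tested. Vdr had a chase over pulse ratio of 0.702 in adipogenic against 1.48 in osteogenic CAR cells, a factor of 2.11. Against the 1.42 of osteoblasts the factor was 2.02. CAR cells of the libraries were spread differently along the marker score, with 1010 pulse and 1870 chase cells in the lowest bin. In that bin Vdr was at 25.3 and 25.5 CPM. It was lower in the chase in the second bin (48.2 and 31.5 CPM) and the third, and higher from the fourth (43.9 and 59.7 CPM) to the last. The part of this spread in the Vdr ratios was not tested. Pth1r had 0.890 in adipogenic against 1.13 in osteogenic CAR cells, a factor of 1.27, and its endothelial ratio of 0.545 was 0.484 times that of osteogenic CAR cells. With clusters the endothelial ratio of Pth1r was 1.11, on the other side of 1. Endothelial Pth1r, at 13.7 and 7.50 CPM, lay near the blood gate, which itself went from 10.4 to 4.45 CPM. Insr had 0.729 in endothelial cells, which was 0.660 times its ratio in adipogenic CAR cells (1.11) and 0.503 times that in osteoblasts (1.45). Osteoblast Insr, at 16.2 and 23.5 CPM, lay under or near the 28.8 and 22.5 CPM of the blood gate.

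Calcr gave its clearest signal outside the cell filter. In the chase, 9 Calcr UMIs lay in 3 of 10 osteoclast-gated barcodes that were removed for their mitochondrial share, and 0 in the 37 that were kept.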

How the results depend on the processing

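Of 96 counts of called receptors under alternatives, 82 stayed within 1.5 times the value reported. A like count can hold other receptors: in 29 of the 96, at least 1 receptor changed its call, or entered or left the measured set. With a 2-fold rule the count was 3 for osteogenic over adipogenic CAR cells in the chase, 1 for chase over pulse in osteoblasts, and 0 for chase over pulse in adipogenic CAR, osteogenic CAR and endothelial cells. Chase over pulse in osteogenic CAR cells gave 3 with Leiden clusters (Vdr and Esr1 higher, Gpr50 lower), 2 with median-of-ratios scaling (Vdr and Esr1) and 2 with a minimum of 20 UMIs (Esr1 and Gpr50). In osteoblasts it gave 3 with Leiden clusters (Vdr, Esr1 and Insr higher), 1 with every deposited barcode (Esr1), 1 with the mean of the cells' own CPM (Insr) and 1 with median-of-ratios scaling (Esr1), and in endothelial cells 0 with that scaling. With that scaling, 6.27% of all genes were higher and 5.50% lower for chase over pulse in osteogenic CAR cells. These shares were 4.65% and 3.78% in osteoblasts and 4.74% and 2.07% in endothelial cells. The share of all genes was not counted under the other alternatives. Alternatives chosen after seeing the data moved the CAR boundary to -0.5, left out cells near it or left out shared barcodes. The first gave 5 lower receptors in osteoblasts over osteogenic CAR cells in the pulse and 3 calls for chase over pulse in osteogenic CAR cells. Pth1r in endothelial cells reversed, from a chase over pulse ratio of 0.545 to 1.11 with Leiden clusters. Apart from changes that follow from a rule's own construction, the cause was not tested. Of 504 single ratios, 48 changed call. Ratios of osteocytes over osteoblasts and of endothelial over adipogenic CAR cells were not rerun under alternatives. No paired analysis was possible because each group holds 1 library. Depth limits Gpr50 outside adipogenic CAR cells, Esr1 in osteocytes and Calcr everywhere.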
